A study of Mus musculus with 25 samples.

Results

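The integrated stress response genes described here are 10 genes chosen by name, Atf4, Atf5, Ddit3, Trib3, Asns, Phgdh, Psat1, Mthfd2, Fgf21 and Gdf15, out of 35969 genes with a transcript in the table. The choice was made with earlier results of these data known. All 10 were found by symbol in GENCODE mouse release M21. Their mRNA was measured in left ventricular tissue of 25 male mice, 5 in each of 5 groups. WT CNTL mice were wild-type mice on a normal chow, and GPx4+/- CNTL mice were littermates on the same chow that carried 1 disrupted allele of Gpx4, the gene for the peroxidase that reduces lipid peroxides. WT HFHS and GPx4+/- HFHS mice were fed a high fat high sucrose diet, and WT HFHS + Carnosine mice were wild-type mice on that diet that also drank the dipeptide carnosine. Mice entered at 8 to 10 weeks of age and stayed on their diet for 16 weeks, and carnosine was given at 80 mM from week 7. The loss of the Gpx4 allele was not limited to 1 cell type, carnosine had no group on CNTL diet, and carnosine in GPx4+/- mice on HFHS was not analysed here. Before tissue was taken the mice were fasted and then given dextrose or saline, and the labels do not say which mouse received which.

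The integrated stress response starts with kinases that phosphorylate the translation factor eIF2. This slows protein synthesis in general but favours translation of a few mRNAs, among them that of the transcription factor ATF4. ATF4 then turns on genes for amino acid uptake and synthesis, for serine and folate metabolism in mitochondria, and for secreted hormones. In heart muscle the response is known from mitochondrial disease and from lack of amino acids, where serine synthesis genes and Fgf21 are often raised. Because ATF4 is controlled largely by translation, the mRNA of Atf4 is not a measure of its protein.

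ATF4 binds as a dimer with C/EBP proteins to an element that can be written TGATGNAA. It was looked for on both strands in RefSeq promoter windows of 300 bases, from 250 before the first base of a transcript to 50 bases from it on. The 10 members have 13 such windows, and 3 of them, for Asns, Trib3 and Fgf21, hold the 8 letters. Of all 32851 windows, 1304 hold them (3.97%). The 3 matches follow in stretches of 30 bases, read along the gene's strand of GRCm38.p6, with the match in capitals. They are shown because these are the only places in the members' windows where these letters occur.
Asns, chr6:7693214-7693243, minus strand: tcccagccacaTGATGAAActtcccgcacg
Fgf21, chr7:45615611-45615640, minus strand: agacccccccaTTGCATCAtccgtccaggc
Trib3, chr2:152344027-152344056, minus strand: tagctcaggtTTACATCAgccgggcgggga
The match of Asns begins 23 bases before the RefSeq start and lies on the gene's own strand. Those of Fgf21 (139 bases before the RefSeq start) and Trib3 (14 bases after it) lie on the other strand. The GENCODE genes, whose coordinates are given with the values, have the same start for Fgf21 but not for the other two. Counted from the GENCODE start, the match begins 22 bases after it for Asns and 14 bases before it for Trib3. Mthfd2, Atf5 and the other 5 members have no match in their windows, which says only that these letters are not there.

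Values are TPM (shares of all transcripts in a library, corrected for transcript length and set to a total of 1000000), summed over the transcripts of a gene and divided by a scaling factor per library, here called scaled TPM. TPM keep no read depth, so no counting error can be given. The scaling factors lay between 0.864 and 1.16, and mitochondrial transcripts took between 31.3% and 48.7% of a library. Gpx4 was lower in every GPx4+/- mouse than in every WT mouse, with group means at 45.6% of WT on CNTL and 49.4% on HFHS. Ventricular cardiomyocyte markers (5 of 5 detected) summed to between 37449 and 47119 scaled TPM in all 25 mice, and the labelled tissue was present in each. Some libraries also had high sums of atrial or hepatocyte markers, whose source was not tested. Atrial markers summed to 4565 scaled TPM in WT CNTL replicate 3, 7204 and 1481 in GPx4+/- CNTL replicates 1 and 2, 2690 in GPx4+/- HFHS replicate 4 and 580 in WT HFHS + Carnosine replicate 2. Hepatocyte markers summed to 1178 in GPx4+/- CNTL replicate 2, 99.2 in GPx4+/- HFHS replicate 1 and 61.3 in GPx4+/- HFHS replicate 3. The diet results of the members abundant enough to be tested are therefore also given without these mice, but those of Fgf21 and Gdf15 are not.

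In level the transcription factor genes stood highest, with means over 25 mice of 36.3 scaled TPM for Atf4, 27.8 for Atf5 and 17.0 for Ddit3, and this order held in 25 of 25 mice. Mthfd2 (2.76), Trib3 (2.06), Psat1 (1.79), Asns (1.50) and Phgdh (1.14) followed close together, and neighbours in this order changed places between mice. Mthfd2 was above Trib3 in 19 of 25 mice and Asns above Phgdh in 16 of 25. The mice with Mthfd2 below Trib3 were all on CNTL, and the WT CNTL means were 1.45 for Mthfd2 and 1.90 for Trib3. The hormone gene Gdf15, with a mean of 0.819, came next without a clear break, since Phgdh was above it in 17 of 25 mice. Fgf21 was the lowest in 25 of 25 mice, between 0 and 0.249 scaled TPM. A gene entered the test when its scaled TPM averaged 1 or more, which left 11984 genes, so 8 of the 10 members entered and Fgf21 and Gdf15 did not. Phgdh entered only through the mice on HFHS, since its mean was 0.987 in WT CNTL and 0.889 in GPx4+/- CNTL.

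**Figure D1:**
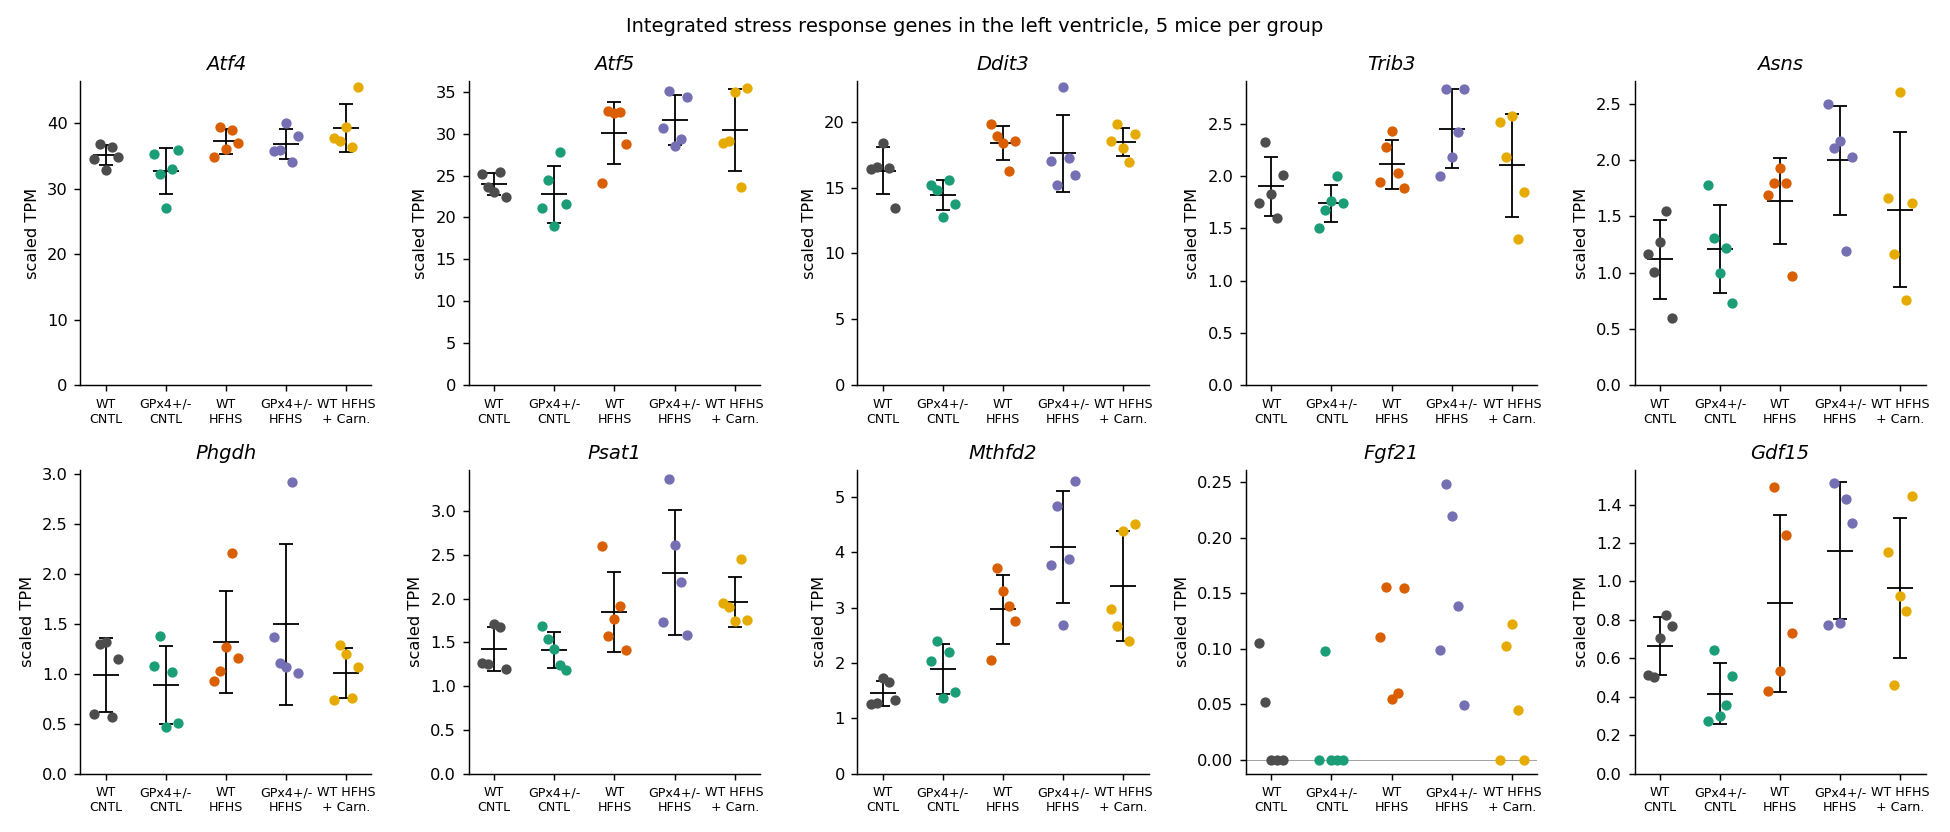
Scaled TPM of the 10 members (vertical axes, linear, each with its own range) by group, with 1 point per mouse, 5 mice per group. Bars give the group mean and SD except for Fgf21, which is listed at 0 in 9 mice. Mthfd2 lies between 1.26 and 1.74 in WT CNTL and between 2.05 and 3.71 in WT HFHS, without overlap.

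The first question was what the HFHS diet did to these genes. Over both genotypes all 8 tested members were higher on HFHS than on CNTL, and 6 of them, Atf5, Ddit3, Trib3, Asns, Psat1 and Mthfd2, rose with an adjusted p under 0.05 from limma. Phgdh, which was not called, passed the filter only through its level on HFHS, so its direction lends no support. Of all 11984 genes tested, 4.68% were called higher in this comparison. The log2 differences of the 8 members lay between 0.13 and 0.87 with a median of 0.39, beside a median of -0.0024 over all genes tested. In GPx4+/- mice alone, 3 members rose (Mthfd2, Atf5 and Trib3), where 2.18% of all genes were called higher. In WT mice alone only Mthfd2 did, where 0.659% of all genes were called higher. There 3 members had an unadjusted p under 0.05, as did 1979 of all 11984 genes. In bulk tissue a change in RNA per cell and a change in the share of a cell type cannot be told apart.

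How many members were called depended on the scaling and on single mice, whereas the direction did not. In the 3 diet comparisons and all alternatives run, 78 fits in all, every tested member was higher on HFHS. For Phgdh this is limited by the filter, as said above. With TPM as deposited, without scaling factors, only Atf5 and Mthfd2 were called over both genotypes, and the split of all called genes changed from 561 higher and 437 lower to 142 higher and 572 lower. In GPx4+/- mice, where the median of all genes moved by -0.10 on the log2 scale under that alternative and the split from 261 higher and 139 lower to 37 and 387, only Mthfd2 remained. The count over both genotypes also fell to 3 without any 1 of 8 mice, which were WT CNTL replicates 1, 2 and 5, GPx4+/- CNTL replicate 5, WT HFHS replicates 1, 2 and 3 and GPx4+/- HFHS replicate 3. In these 8 fits 453 to 548 of all genes were called higher, beside 561 with all mice. In WT mice the count was 0 without WT CNTL replicate 1 or 2 or WT HFHS replicate 2, where the genes called higher also fell, from 79 to 40, 19 and 43, and it was 2 without WT HFHS replicate 1 (75 genes). The deposited TPM gave no member call in WT mice (Mthfd2 log2 difference 0.82, adjusted p = 0.0597 from limma), and 21 of all genes were then called higher.

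**Figure D2:**
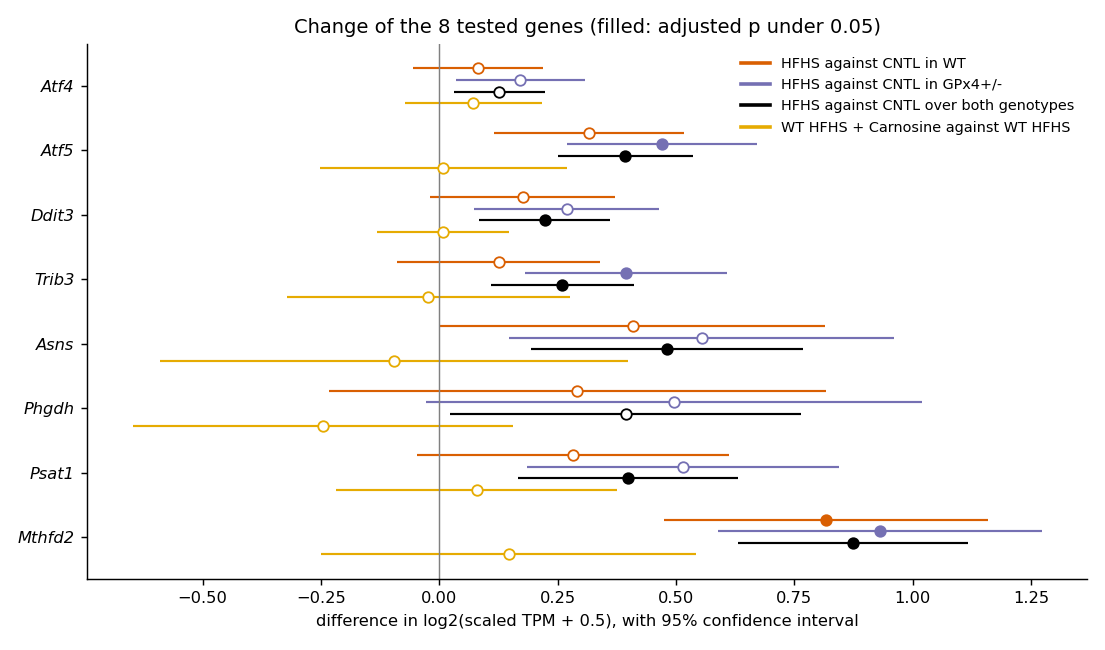
Differences in log2(scaled TPM + 0.5) of the 8 tested members (horizontal axis) with 95% confidence intervals from limma, for 3 diet comparisons and for carnosine. Filled points have an adjusted p under 0.05. The diet points all lie to the right of 0, up to 0.93 for Mthfd2 in GPx4+/- mice, while the carnosine points lie between -0.25 and 0.15.

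Among the 8 tested members Mthfd2 had the largest log2 difference in each of the 3 diet comparisons. It codes for a mitochondrial enzyme of folate metabolism, a methylenetetrahydrofolate dehydrogenase and cyclohydrolase that is low in most adult tissues and is a classic target of ATF4 (ENSMUSG00000005667.8, chr6:83305691-83325908 of GRCm38, minus strand). In WT CNTL its scaled TPM was 1.26, 1.28, 1.74, 1.66 and 1.33, and in the 5 GPx4+/- CNTL mice 2.04, 2.40, 1.37, 2.19 and 1.48. On HFHS it was 2.05, 3.71, 3.30, 3.03 and 2.77 in WT and 3.77, 4.84, 2.68, 3.88 and 5.29 in GPx4+/- mice. Within each genotype the diets did not overlap, while the highest GPx4+/- CNTL mouse was above the lowest WT HFHS mouse. The log2 difference on HFHS was 0.82 (SE 0.16, adjusted p = 0.0188 from limma) in WT and 0.93 (SE 0.16, adjusted p = 0.00483) in GPx4+/-. Over both genotypes it was 0.87 (SE 0.12, adjusted p = 0.000152), and it stayed called in every alternative in which the gene was tested. In WT alone the call was lost without WT CNTL replicate 1 or 2 or WT HFHS replicate 2 (adjusted p from 0.0509 to 0.0667). In terms of group means, the level on HFHS was 2.04 times that on CNTL in WT and 2.16 times in GPx4+/- (two-sided exact permutation p = 0.00794 each, the smallest that 5 mice against 5 allow).

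Its main transcript, Mthfd2-201 (2085 bases), carried 72.9% of the gene's scaled TPM and showed the same separation. In WT its mean was 1.16 ± 0.170 on CNTL and 2.24 ± 0.356 on HFHS, and in GPx4+/- mice 1.11 ± 0.394 and 2.96 ± 0.747 (SD, n = 5 each). On CNTL diet the short transcript Mthfd2-207 (443 bases) was listed at 0.211 ± 0.194 in WT and 0.623 ± 0.161 in GPx4+/- mice (SD, n = 5 each). The gene sums on this diet were 1.45 in WT and 1.89 in GPx4+/- mice (two-sided exact permutation p = 0.0952), a gap that lay in the short transcript and not in Mthfd2-201. How the reads were divided between the transcripts is an estimate of the quantification.

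Among the transcription factors, Atf5 rose and Atf4 did not pass the test. ATF5 is a relative of ATF4 whose mRNA is also translated when eIF2 is phosphorylated, and it is known for its role in the mitochondrial unfolded protein response (ENSMUSG00000038539.15, chr7:44812256-44816658, minus strand). Atf5 was 25.2, 23.6, 23.1, 25.5 and 22.4 scaled TPM in WT CNTL and 21.2, 24.4, 18.9, 27.8 and 21.6 in GPx4+/- CNTL. It was 24.1, 32.7, 32.4, 32.5 and 28.7 in WT HFHS and 30.6, 35.1, 28.5, 29.3 and 34.4 in GPx4+/- HFHS. The diets did not overlap in GPx4+/- mice, whereas in WT mice HFHS replicate 1 lay among the CNTL mice and the other 4 above all of them. The log2 difference was 0.47 (SE 0.096, adjusted p = 0.0108 from limma) in GPx4+/- and 0.32 (SE 0.096, adjusted p = 0.106) in WT. The call in GPx4+/- mice was lost with only the 2 groups in the fit (adjusted p = 0.0532 from limma), with nuclear genes rescaled without mitochondrial transcripts (0.0508) and with TPM as deposited (0.101). Without WT HFHS replicate 1 the difference in WT was 0.39 and passed (adjusted p = 0.0401). Over both genotypes it was 0.39 (SE 0.068, adjusted p = 0.00133). The transcript Atf5-201, with 84.0% of the gene's scaled TPM, averaged 19.2 ± 2.09 on CNTL and 26.7 ± 4.12 on HFHS in WT, while Atf5-202 averaged 4.76 ± 1.55 and 3.31 ± 0.725 (SD, n = 5 each). In GPx4+/- mice Atf5-201 averaged 18.7 ± 3.51 and 26.6 ± 3.07. There Atf5-202 went the other way than in WT, with 4.12 ± 0.632 and 4.97 ± 1.07 (SD, n = 5 each).

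Atf4 itself (ENSMUSG00000042406.8, chr15:80255184-80257541, plus strand) averaged 35.2 ± 1.59 scaled TPM in WT and 32.8 ± 3.54 in GPx4+/- mice on CNTL, against 37.3 ± 1.92 and 36.8 ± 2.26 on HFHS (SD, n = 5 each). The log2 difference on HFHS over both genotypes was 0.13 (SE 0.046, unadjusted p = 0.0129, adjusted p = 0.0953 from limma), with a 95% confidence interval from 0.030 to 0.22. Ddit3, which codes for the pro-apoptotic factor CHOP (ENSMUSG00000025408.15, chr10:127290774-127296288, plus strand), was 16.3 ± 1.78 in WT CNTL and 18.4 ± 1.32 in WT HFHS, and 14.4 ± 1.13 and 17.6 ± 2.92 in GPx4+/- mice (SD, n = 5 each). It rose over both genotypes by 0.22 on the log2 scale (SE 0.066, adjusted p = 0.0420 from limma), and this call was lost without any 1 of 13 mice (adjusted p from 0.0547 to 0.0747 from limma). These were WT CNTL replicates 1, 2, 4 and 5, GPx4+/- CNTL replicates 3 and 5, WT HFHS replicates 1, 2, 3 and 5 and GPx4+/- HFHS replicates 1, 3 and 4, of which the last group's replicate 3 was the highest of all 20 mice (22.6 scaled TPM). The Ddit3 call was also lost in 7 of 12 other alternatives (adjusted p up to 0.231 from limma).

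Trib3, a pseudokinase that binds ATF4 and CHOP and damps their activity, rose in GPx4+/- mice (ENSMUSG00000032715.9, chr2:152337422-152344032, minus strand). It was 1.51, 1.68, 1.77, 2.00 and 1.74 scaled TPM in GPx4+/- CNTL and 2.00, 2.84, 2.18, 2.42 and 2.83 in GPx4+/- HFHS, so that the groups met only at their edges. The log2 difference was 0.39 (SE 0.10, adjusted p = 0.0406 from limma) in GPx4+/- and 0.13 (SE 0.10, adjusted p = 0.575) in WT, where CNTL mice ranged from 1.60 to 2.33 and HFHS mice from 1.89 to 2.44. The difference between these diet effects was 0.27 (SE 0.14, unadjusted p = 0.0774, adjusted p = 0.702), which did not pass. The call in GPx4+/- mice was lost without any 1 of CNTL replicates 1, 2, 3 and 5 and HFHS replicates 2, 4 and 5 (adjusted p from 0.0575 to 0.112). It was also lost in 6 of 11 other alternatives, among them that without the mice high in atrial markers (log2 difference 0.33, adjusted p = 0.199 from limma). Over both genotypes Trib3 rose by 0.26 (SE 0.072, adjusted p = 0.0303). That call was lost without any 1 of WT CNTL replicates 1 and 4, GPx4+/- CNTL replicate 1, WT HFHS replicates 2 and 3 and GPx4+/- HFHS replicate 5 (adjusted p from 0.0538 to 0.0608), and in 5 of 11 other alternatives (up to 0.131).

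Of the members that make amino acids, Asns and Psat1 rose over both genotypes and Phgdh did not pass. Asns, the asparagine synthetase (ENSMUSG00000029752.12, chr6:7675169-7693254, minus strand), averaged 1.12 ± 0.351 scaled TPM in WT and 1.21 ± 0.392 in GPx4+/- mice on CNTL, and 1.64 ± 0.383 and 2.00 ± 0.485 on HFHS (SD, n = 5 each). In each genotype 4 of 5 HFHS mice were above all CNTL mice. The mice that stayed within the CNTL range were WT HFHS replicate 5 (0.968) and GPx4+/- HFHS replicate 4 (1.19). Its log2 difference in GPx4+/- mice was 0.55 (adjusted p = 0.128 from limma), and 0.88 without the mice high in atrial markers, where it passed (adjusted p = 0.0380). Over both genotypes Asns rose by 0.48 on the log2 scale (SE 0.14, adjusted p = 0.0348 from limma). The call was lost without any 1 of WT CNTL replicates 2 and 5, GPx4+/- CNTL replicates 3 and 5, WT HFHS replicates 1 to 4 and GPx4+/- HFHS replicates 1, 3 and 5 (adjusted p from 0.0509 to 0.0675), and in 5 of 11 other alternatives (up to 0.121).

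Psat1, the phosphoserine aminotransferase that makes the second step of serine synthesis (ENSMUSG00000024640.9, chr19:15904678-15947337, minus strand), was 1.42 ± 0.251 in WT CNTL and 1.42 ± 0.205 in GPx4+/- CNTL, and 1.85 ± 0.457 and 2.30 ± 0.719 on HFHS (SD, n = 5 each). It rose by 0.40 over both genotypes (SE 0.11, adjusted p = 0.0309 from limma), a call lost without any 1 of WT CNTL replicates 1, 2 and 5, GPx4+/- CNTL replicates 4 and 5, WT HFHS replicate 1 and GPx4+/- HFHS replicate 3 (adjusted p from 0.0518 to 0.0567), and in 4 of 11 other alternatives (up to 0.0687). Phgdh, the enzyme of the first step (ENSMUSG00000053398.11, chr3:98313170-98339990, minus strand), had a nearly equal log2 difference of 0.39 but an SE of 0.18 and did not pass (adjusted p = 0.177). On HFHS, 1 mouse of each genotype stood apart, with 2.21 scaled TPM in WT replicate 4 and 2.92 in GPx4+/- replicate 4, against 0.929 to 1.27 and 1.01 to 1.37 in the others. Phgdh is uncertain for a further reason, since 20 other genes hold near-identical sequence (90.4% to 98.7% identity). The 17 of them in the table had at most 0.0773 scaled TPM in any mouse.

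The hormone genes were too low for the test across all genes and are described by single values. Their exact permutation p-values are unadjusted and belong to 60 such tests (10 members in 6 comparisons). Gdf15 codes for a stress hormone of the TGF-beta family that acts on appetite through the brainstem (ENSMUSG00000038508.7, chr8:70629393-70632456, minus strand). It was 0.272, 0.644, 0.298, 0.359 and 0.510 scaled TPM in GPx4+/- CNTL and 0.771, 1.51, 0.782, 1.43 and 1.31 in GPx4+/- HFHS, without overlap (ratio of means 2.78, two-sided exact permutation p = 0.00794). In WT it was 0.513, 0.503, 0.709, 0.828 and 0.768 on CNTL and 0.43, 1.49, 0.533, 1.24 and 0.732 on HFHS, with the HFHS mice spread on both sides of the CNTL mice (ratio of means 1.33, two-sided exact permutation p = 0.381). The difference of the means in WT, 0.222 scaled TPM, was 0.0706 without WT HFHS replicate 2, 0.132 without replicate 4 and 0.336 without replicate 1 of that group. When all genes were tested without the filter, the difference between the diet effects was 0.65 (SE 0.29, unadjusted p = 0.0365, adjusted p = 0.824 from limma), so a difference between the genotypes was not shown. In that fit of 25881 genes, the adjusted p over both genotypes was 0.0587 for Gdf15 and 0.0275 for Fgf21.

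Fgf21 codes for an endocrine growth factor that is known as a hormone of fasting and mitochondrial stress (ENSMUSG00000030827.5, chr7:45613886-45615490, minus strand). Listed values were 0.106, 0.0518 and 3 times 0 in WT CNTL and 0.0982 and 4 times 0 in GPx4+/- CNTL. On HFHS no mouse was at 0, with values of 0.111, 0.156, 0.0549, 0.0602 and 0.154 in WT and 0.0991, 0.249, 0.220, 0.139 and 0.0492 in GPx4+/- mice. With carnosine they were 0, 0.102, 0.122, 0.0452 and 0. The two-sided exact permutation p between diets was 0.0317 in WT and 0.0159 in GPx4+/-, and the former rose to 0.0635 without any of 6 single mice (WT CNTL replicates 3, 4 and 5 and WT HFHS replicates 1, 2 and 5). The only GPx4+/- CNTL mouse above 0, replicate 2, was also high in hepatocyte markers, as were GPx4+/- HFHS replicates 1 and 3. The part of these markers in the Fgf21 values was not tested. All these levels are far below 1 TPM, where a value can rest on very few reads, and the reads cannot be counted from TPM.

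A stricter view of the diet is to ask how many members did not overlap at all. In WT, 1 of 8 tested members had all HFHS mice above all CNTL mice (Mthfd2), as did 2.28% of all genes tested. In GPx4+/- mice there were 2 (Mthfd2 and Atf5), where 2.53% of all genes tested did so.

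Single markers of 3 cell type lists were also called with the diet over both genotypes, where 4.68% of all genes were called higher and 3.65% lower, and their part in the member values was not tested. In the brown adipocyte list 1 of 3 genes was tested, Cidea, and it was higher on HFHS, with the sum at 20.1 to 28.4 scaled TPM over the CNTL mice and 27.8 to 32.9 over the HFHS mice without carnosine. Its defining gene Ucp1 stayed at or below 0.0321 and Elovl3 at or below 0.890 in every mouse. Of the fibroblast list Pdgfra was higher (1 of 4), with sums of 248 to 474 on CNTL and 289 to 549 on HFHS, and of the ventricular list Myh6 was lower (1 of 5). Endothelial markers (0 of 4 called) summed to 169 to 214 on CNTL and 194 to 242 on HFHS. Smooth muscle markers (0 of 5 called) reached 528 in WT HFHS replicate 4 and lay at 66.2 to 143 on CNTL. No marker of atrial cells, hepatocytes, macrophages, skeletal muscle or pancreatic acinar cells was called over both genotypes, and no white adipocyte marker was abundant enough to be tested. Without the mice high in atrial markers (4 of the 5 are in this fit) the median log2 difference of the 8 members over both genotypes was 0.43 and 4 were called (Atf5, Asns, Psat1 and Mthfd2), where 4.25% of all genes were called higher. Of the members, 3 were then called in GPx4+/- mice (Atf5, Asns and Mthfd2, beside 1.25% of all genes) and in WT mice 1 (Mthfd2, beside 0.968%). Without the 3 mice high in hepatocyte markers the median over both genotypes was 0.43 and 3 were called (Atf5, Trib3 and Mthfd2), where 3.08% of all genes were called higher, and the same 3 were called in GPx4+/- mice (beside 0.759% of all genes).

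The second question was whether the Gpx4 allele mattered for these genes. No member was called in limma on CNTL (0 of 8 at an unadjusted p under 0.05), on HFHS (1 of 8, Mthfd2) or over both diets (1 of 8, Mthfd2). Of all genes tested, 0.0501%, 0.0501% and 0.0584% were called in these comparisons, and 753, 548 and 467 genes had an unadjusted p under 0.05. Mthfd2 was higher in GPx4+/- mice by 0.34 on the log2 scale over both diets (SE 0.12, unadjusted p = 0.00888, adjusted p = 1.00), with a 95% confidence interval from 0.095 to 0.58. On HFHS, 4 of 5 GPx4+/- mice were above all WT mice and GPx4+/- HFHS replicate 3 was not. Of the hormone genes, Gdf15 was lower in GPx4+/- than in WT mice on CNTL (means of 0.417 and 0.664 scaled TPM, two-sided exact permutation p = 0.0397, unadjusted), with overlap, and the p rose to 0.0794 without any 1 of WT CNTL replicates 3, 4 and 5 and GPx4+/- CNTL replicates 1, 3 and 4. The low GPx4+/- CNTL mean also enters the ratio of 2.78 between diets in these mice. For Fgf21 on CNTL the two-sided exact permutation p was 0.722. In the test across all genes, the diet effect was larger in GPx4+/- than in WT mice for all 8 tested members, by 0.089 to 0.27 on the log2 scale. None of these differences passed in limma (0 at an unadjusted p under 0.05, lowest adjusted p = 0.702), and the sign turned for Atf4 and Ddit3 with TPM as deposited, for Ddit3 without the mice high in hepatocyte markers and for Phgdh without GPx4+/- HFHS replicate 4. Of all genes tested, 0% were called (856 at an unadjusted p under 0.05). The CNTL and HFHS groups of this comparison are those of the diet and genotype comparisons.

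The third question was whether carnosine changed the genes in WT mice on HFHS. In limma 0 of the 8 tested members were called, 0 had an unadjusted p under 0.05 and 0% of all genes tested were called (505 at an unadjusted p under 0.05). The log2 differences lay between -0.25 (Phgdh, SE 0.18) and 0.15 (Mthfd2, SE 0.18), with a median of 0.0079. Mthfd2 was 2.98, 2.67, 4.38, 2.39 and 4.52 scaled TPM with carnosine, within and above the range of the WT HFHS mice, and its 95% confidence interval ran from -0.25 to 0.54. Atf5 was 28.9, 29.1, 35.0, 23.6 and 35.4 with carnosine, a log2 difference of 0.0088 with a confidence interval from -0.25 to 0.27. The lower bound of the interval was smaller in size than the diet effect in WT for 5 of the 8 members, among them Mthfd2 and Atf5 (0.82 and 0.32). It was larger for the other 3, at -0.59 beside a diet effect of 0.41 for Asns, -0.65 beside 0.29 for Phgdh and -0.32 beside 0.13 for Trib3.

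Set against WT CNTL, the WT HFHS + Carnosine mice had higher values for all 8 tested members, although the sign for Phgdh turned with TPM as deposited and without any 1 of 4 mice (WT CNTL replicates 1 and 4 and WT HFHS + Carnosine replicates 2 and 3), and only Mthfd2 rose (log2 difference 0.96, SE 0.16, adjusted p = 0.0412 from limma), where 0.184% of all genes were called higher. This call was lost without any 1 of WT CNTL replicates 1, 2, 4 and 5 and WT HFHS + Carnosine replicates 1, 2, 3 and 5 (adjusted p from 0.0571 to 0.110), and in 5 of 10 other alternatives (up to 0.151), although all 5 carnosine mice were above all WT CNTL mice. These control mice also serve the diet comparison in WT.

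Within groups, mice high in Atf5 were high in Mthfd2. After the mean of its group was taken from each log2 value, Pearson's r between both genes over the 25 mice was 0.83, and Mthfd2 ranked 1 among 11983 genes by likeness to Atf5. In turn Atf5 ranked 2 by likeness to Mthfd2, after Gusb (r = 0.89), which codes for the lysosomal enzyme beta-glucuronidase. Group by group the r was 0.95 (WT HFHS), 0.94 (WT HFHS + Carnosine), 0.90 (GPx4+/- HFHS) and 0.77 (GPx4+/- CNTL) but 0.072 in WT CNTL, where Mthfd2 ranged least, each over 5 mice. These values share the library and its scaling factor, and are given as a description only. WT HFHS replicate 1, the lowest of its group in Atf5 (24.1), was also the lowest in Mthfd2 (2.05).

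**Figure D3:**
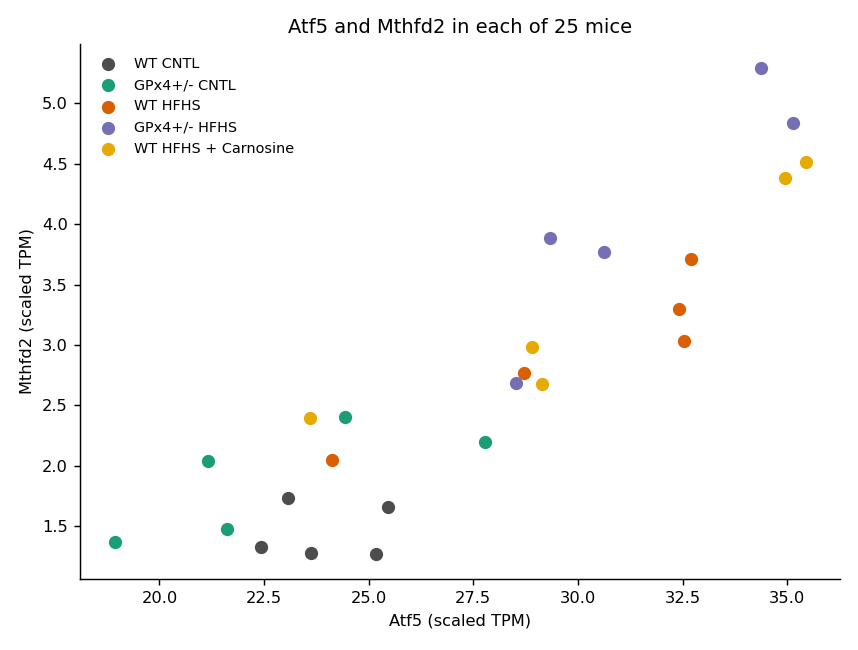
Scaled TPM of Atf5 (horizontal axis) and Mthfd2 (vertical axis) in each of 25 mice, coloured by group. WT CNTL mice lie at the bottom between 1.26 and 1.74 for Mthfd2, and the highest mouse, GPx4+/- HFHS replicate 5, has 34.4 for Atf5 and 5.29 for Mthfd2.

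The members did not move together as 1 block from mouse to mouse. Of their 28 pairs, 19 had an r above 0 within groups and 9 below, with a median of 0.15. Atf5 went with Atf4 (0.50), Asns (0.50) and Trib3 (0.48), whereas the median r of Psat1 with the other members was -0.22. The 2 genes most like each of the other members were Hsp90aa1 and Dusp8 for Atf4 (r of 0.80 and 0.79), Ifit3b and Oasl1 for Ddit3 (0.75 and 0.75), Tmed8 and Sept2 for Trib3 (0.80 and 0.72), Ifih1 and Coro1a for Asns (0.75 and 0.74), Lsp1 and Fkbp7 for Phgdh (0.72 and 0.72) and Commd8 and Cebpz for Psat1 (0.75 and 0.70). For Atf5 the next gene after Mthfd2 was Col4a1 (0.80). None of the members besides Atf5 and Mthfd2 had another member among its 2 most like genes.

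Of 72 further genes of the pathway in 7 lists, 65 were tested, and on HFHS over both genotypes 3 rose, 2 fell and 60 did not pass, with 31 higher and 34 lower by sign. These counts were near the share of all genes called in this comparison, 4.68% higher and 3.65% lower. Their median log2 difference was -0.0032, beside 0.39 for the 8 members and -0.0024 for all genes tested. Members and lists were chosen with earlier results of these data known, so this contrast is a description only. With carnosine 0 of the 65 were called and 0 had an unadjusted p under 0.05, and between genotypes 0 were called.

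**Figure D4:**
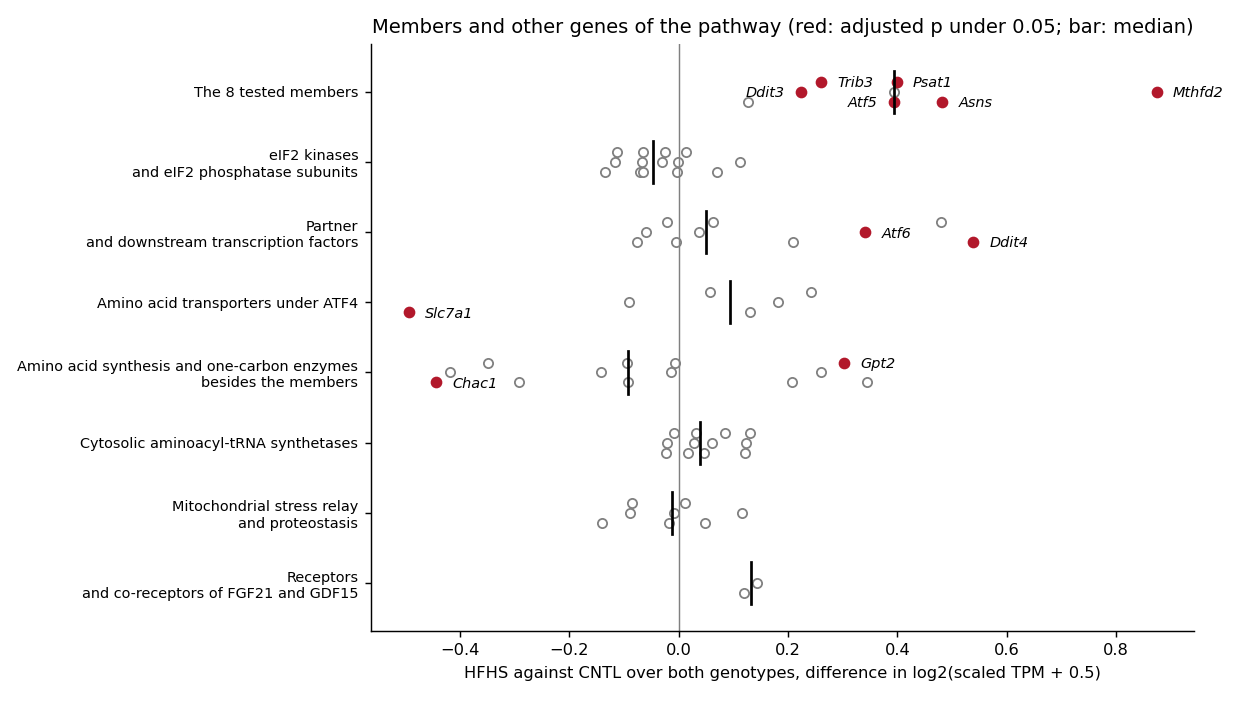
Difference in log2(scaled TPM + 0.5) on HFHS against CNTL over both genotypes (horizontal axis) for each tested gene of the members and of 7 pathway lists. Red points have an adjusted p under 0.05 and black bars are list medians. The median is 0.39 for the members and lies between -0.093 and 0.13 for the other lists.

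Upstream of ATF4, 0 of 14 tested genes for eIF2, its kinases, its exchange factor and its phosphatase subunits were called in any diet comparison (median -0.048 over both genotypes). Over both genotypes 3 had an unadjusted p under 0.05, as did 2933 of all 11984 genes tested. These 3 were Eif2b3, a subunit gene of the exchange factor (log2 difference -0.12, unadjusted p = 0.0313, adjusted p = 0.156 from limma), and the kinase genes Eif2ak1, for the heme-regulated kinase (0.069, adjusted p = 0.163), and Eif2ak3, for PERK, the sensor in the endoplasmic reticulum (0.11, adjusted p = 0.196). Mitochondrial relay and proteostasis genes were likewise not called (0 of 8, median -0.013). In this list Oma1, the inner membrane protease that starts the mitochondrial signal, had a log2 difference of 0.12 (SE 0.040, unadjusted p = 0.00955, adjusted p = 0.0807). Lower at an unadjusted p under 0.05 were Yme1l1, another inner membrane protease (-0.14, adjusted p = 0.103), and Hspa9, the mitochondrial HSP70 chaperone (-0.086, adjusted p = 0.193). Single alternatives called these 3, namely Oma1 with protein-coding transcripts only (adjusted p = 0.0474) and without WT HFHS replicate 4 (0.0455), Yme1l1 with TPM as deposited (0.0257) and without GPx4+/- HFHS replicate 2 (0.0136), and Hspa9 with nuclear genes rescaled (0.0334). Cytosolic aminoacyl-tRNA synthetases, commonly raised with ATF4, were called in 0 of 12 cases, with 9 higher and 3 lower over both genotypes. In GPx4+/- mice alone all 12 were higher (median 0.074, 0 called), and in WT mice 7 were higher and 5 lower (median 0.031, 0 called).

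Among partner and downstream factors 2 of 10 rose, beside 4.68% of all genes. Atf6 codes for a sensor of protein folding in the endoplasmic reticulum that belongs to another branch of the unfolded protein response. It averaged 29.3 ± 2.17 scaled TPM in WT and 27.1 ± 1.88 in GPx4+/- mice on CNTL, and 34.9 ± 3.40 and 36.7 ± 1.77 on HFHS (SD, n = 5 each). Its log2 difference was 0.34 over both genotypes (SE 0.047, adjusted p = 0.000217 from limma) and 0.43 in GPx4+/- mice (SE 0.066, adjusted p = 0.00222), where CNTL mice ended at 29.4 and HFHS mice began at 34.6. Ddit4, an inhibitor of mTORC1, rose by 0.54 over both genotypes (SE 0.16, adjusted p = 0.0471), a call that was lost without any 1 of WT CNTL replicates 1, 2 and 4, GPx4+/- CNTL replicates 3, 4 and 5, WT HFHS replicates 2 to 5 and GPx4+/- HFHS replicates 1 to 4 (adjusted p from 0.0576 to 0.0851). Atf3, a common companion of ATF4 and CHOP, had a log2 difference of 0.062 (SE 0.15, adjusted p = 0.845).

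Of the metabolic genes besides the members, 13 of 15 enzymes and 6 of 9 transporters were tested, and those called went both ways. Chac1, a glutathione-degrading enzyme that is a known target of ATF4 and CHOP, fell. Its scaled TPM was 5.36, 6.42, 7.63, 6.67 and 6.95 in WT CNTL and 4.35, 4.11, 4.99, 3.59 and 4.86 in WT HFHS, without overlap. The log2 difference was -0.54 in WT (SE 0.11, adjusted p = 0.0256 from limma) and -0.44 over both genotypes (SE 0.080, adjusted p = 0.00190), and the call in WT was lost without any 1 of WT CNTL replicates 2, 4 and 5 and WT HFHS replicates 2 and 4 (adjusted p from 0.0556 to 0.0661), and in 2 of 11 other alternatives (up to 0.0621). In GPx4+/- mice the group means were 6.00 ± 0.846 and 4.62 ± 0.712 (SD, n = 5 each) on CNTL and HFHS, and the log2 difference of -0.35 did not pass (adjusted p = 0.102 from limma). Slc7a1, a transporter of cationic amino acids, fell by 0.49 on the log2 scale over both genotypes (SE 0.13, adjusted p = 0.0251, and 0.0503 without GPx4+/- HFHS replicate 5), from 10.4 ± 2.45 to 6.95 ± 1.29 in WT and from 10.8 ± 3.55 to 7.50 ± 1.22 in GPx4+/- mice (SD, n = 5 each). Gpt2, the mitochondrial alanine aminotransferase, rose by 0.30 (SE 0.081, adjusted p = 0.0252). Besides single mice, 12 alternatives were run for these calls. In them the call over both genotypes was lost in 4 for Gpt2 (adjusted p up to 0.0745), in 6 for Ddit4 (up to 0.112) and in 1 for Slc7a1 (0.0665).

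Psph, which makes the last step of serine synthesis after Phgdh and Psat1, had a log2 difference of -0.093 (SE 0.058, adjusted p = 0.345), and the proline synthesis gene Pycr1 one of 0.26 (SE 0.097, adjusted p = 0.103, and 0.0450 without the mice high in atrial markers). The cystine transporter gene Slc7a11 was at or below 0.273 scaled TPM in every mouse and was not tested. Of the receptors for the 2 hormones, Fgfr1 was present at 10.6 to 21.2 scaled TPM and Ret at 0.859 to 1.97, the FGF21 co-receptor gene Klb was at most 0.0698 and Gfral, the GDF15 receptor of the brainstem, was listed at 0 in all 25 mice.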

How the data were processed

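Myocardial polyA RNA of 25 mice in 5 groups of 5 was analysed. The labels gave each mouse its group and number, and a column was assigned by the library name in its header, not by the column position that the labels also state, which differs. No column of sample values was left unused (0). The authors deposited TPM per transcript. The submitters' processing notes name kallisto 0.43.1, sleuth 0.30.0 and GRCm38, while the paper describes other tools for its own gene tests.

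Of 119215 transcripts, 116772 were matched to GENCODE M21 genes and 2443 were not. TPM were summed per gene (for Ddit3 over 2 gene IDs, 1 of them at 0 throughout) and divided by median-ratio factors over 11879 genes. Genes averaging 1 scaled TPM or more were tested with limma 3.58.1 (R 4.3.3, empirical Bayes with trend) on log2(scaled TPM + 0.5), which understates changes of low genes, and p-values were adjusted by Benjamini-Hochberg over 11984 genes. Because TPM are not counts, limma replaced the count test of the paper. Diet and genotype were compared in 1 fit of the 4 groups without carnosine, and each carnosine comparison on its 10 mice. No label says that mice of a group were handled apart, so p-values measure the spread between these mice. Single values were compared by two-sided exact permutation (scipy 1.17.1). Similar transcripts were found with blastn 2.17.0. The test was checked on simulated data.

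The members and lists were chosen with earlier results of these data known. Named besides the 10 members and Gpx4 were up to 3 called genes per pathway list and comparison and the 2 genes most like each tested member. Eif2b3, Eif2ak1, Eif2ak3, Oma1, Yme1l1, Hspa9, Atf3, Psph, Pycr1, Slc7a11, the receptors and single markers were named after their values were seen. Tried in turn were another pseudocount (0.1), a filter at 5 and none at all, unscaled TPM, quantile normalization, rescaling without mitochondrial transcripts, protein-coding transcripts only, a replicate block, array weights, a fit on fewer or more groups and the omission of each mouse. Leaving out mice high in atrial or hepatocyte markers was added after seeing the data.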

Additional observations from a re-analysis of the deposited data

Results flagged for a closer look

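In 50 groups of 5 mice (10 genes by 5 groups) the highest or lowest mouse was searched for a gap to the next mouse that takes an unusually large share of the group's range. Chance gives about 1 in 20 such groups, 2.5 here, and 5 were found. Phgdh was high in WT HFHS replicate 4 (2.21 scaled TPM, gap share 0.730) and in GPx4+/- HFHS replicate 4 (2.92, gap share 0.814). Ddit3 was high in GPx4+/- HFHS replicate 3 (22.6, gap share 0.727). Asns was low in WT HFHS replicate 5 (0.968, gap share 0.749). Fgf21 was listed at 0.0982 in GPx4+/- CNTL replicate 2 and at 0 in the other 4 mice of that group (gap share 1.0). With 4 values at 0 the share is 1.0 whatever the remaining value, so the chance figure does not hold for this find. That mouse was also high in hepatocyte markers (1178 scaled TPM), whose part in its Fgf21 value was not tested. Both mice high in Phgdh also stood out in another marker list, since smooth muscle markers summed to 528 scaled TPM in WT HFHS replicate 4 and atrial markers to 2690 in GPx4+/- HFHS replicate 4, and the part of these in the Phgdh values was not tested.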

How the results depend on the processing

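The count of members called in WT on HFHS, 1 in the main analysis, was 0 without the filter on low values, 0 with a minimum mean of 5 (3 members tested, Mthfd2 not among them) and 0 with TPM as deposited, and 0 to 2 when single mice were left out. Of all genes, 79 were called higher in the main analysis and 22 without the filter. The number was 67 with the minimum of 5 and 21 with TPM as deposited. In GPx4+/- mice the count of members called, 3 in the main analysis, was 1 with the minimum of 5 (3 members tested), with TPM as deposited, with nuclear genes rescaled without mitochondrial transcripts and with only the 2 groups in the fit (Mthfd2 in the last 3 cases), 2 without the filter and with array weights (Atf5 and Mthfd2), and 2 to 3 without single mice. Of all genes, 261 were called higher in the main analysis, 271 with the minimum of 5 and 37 with TPM as deposited. The number was 109 with nuclear genes rescaled, 81 with only the 2 groups, 159 without the filter and 257 with array weights. Over both genotypes the count of members called, 6 in the main analysis, was 3 without the filter (Atf5, Mthfd2 and Fgf21), 2 with the minimum of 5 (Atf5 and Ddit3, of 3 tested), 2 with TPM as deposited and 2 with nuclear genes rescaled (Atf5 and Mthfd2 in both cases), 4 with all 5 groups in the fit (not Asns, adjusted p = 0.0529, or Trib3, 0.0582), 5 with quantile normalization (not Ddit3), 4 without the mice high in atrial markers, 3 without the mice high in hepatocyte markers, and 3 to 6 without single mice. Of all genes, 561 were called higher in the main analysis, 394 without the filter and 519 with the minimum of 5. The number was 142 with TPM as deposited, 283 with nuclear genes rescaled, 578 with all 5 groups and 536 with quantile normalization. For WT HFHS + Carnosine against WT CNTL the count of members called, 1 in the main analysis, was 0 without the filter, with the minimum of 5, with TPM as deposited, with nuclear genes rescaled, with the replicate block and without the mice high in atrial markers, and 0 to 2 without single mice. No gene at all was called there without the filter or with the block (0 of 25881 and 0 of 11984 by limma, with 2297 and 1450 at an unadjusted p under 0.05), so those counts say nothing about the members. In the genotype comparisons, the difference between diet effects and carnosine against WT HFHS the count of members called was 0 throughout (0 to 0 without single mice). No log2 difference of a tested member between diets turned its sign, and neither did those of the named pathway genes other than Atf3 (-0.0188 to 0.144 without single mice). With carnosine in WT HFHS the sign turned for Atf5 (-0.0629 with TPM as deposited, -0.0101 with nuclear genes rescaled, -0.0672 to 0.0947 without single mice), Ddit3 (-0.0638 and -0.0116 in the same settings, -0.0122 with array weights, -0.0179 without the mice high in atrial markers, -0.0354 to 0.0370 without single mice), Trib3 (0.00950 with quantile normalization, 0.0452 with array weights, -0.0894 to 0.0861 without single mice) and Asns (0.0583 with array weights, -0.260 to 0.0671 without single mice). That of Gdf15 turned without 3 single mice (-0.0389 to 0.232 scaled TPM). For WT HFHS + Carnosine against WT CNTL it turned for Phgdh (-0.00225 with TPM as deposited, -0.0635 to 0.128 without single mice). The difference between diet effects turned for Atf4 (-0.0196 with TPM as deposited), Ddit3 (-0.0139 with TPM as deposited, -0.00822 without the mice high in hepatocyte markers) and Phgdh (-0.00883 to 0.358 without single mice), and that of Gdf15 comes from 1 fit only. The cause of these turns was not tested.

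With the replicate number as a block, 1 member was called in WT, 3 in GPx4+/- and 5 over both genotypes (not Ddit3), where 42, 188 and 489 of all genes were called higher, beside 79, 261 and 561 without it. The numbers mark different animals and did not pair them. In WT, the deviations of same-numbered CNTL and HFHS mice from their group means had an r from -0.24 to 0.23 over all genes, and 2 of 5 CNTL mice were most like the HFHS mouse of their number. TPM keep no depth, and the values of Fgf21, Gdf15 and, near 1 TPM, Phgdh and Asns are the ones most limited by it.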
